A study of Mus musculus with 6 samples.

Results

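The last hour of a 4sU washout, from 90 to 150 min after the label was withdrawn, was followed across 11283 of the 23281 genes counted, those with a mean of at least 100 reads over the 90, 120 and 150 min libraries. The other 11998 genes fell below that minimum. Just inside it lay Cbx8, E430018J23Rik and Ebf3, each with a mean of 100 reads and labelled shares of 28.7%, 30.8% and 41.2% at 90 min. Just outside it lay 4931428F04Rik, AA467197 and Myb, each with a mean of 99.7 reads and shares of 41.9%, 36.2% and 34.1%. Most genes of the window lost label over this hour. RNAs of the zinc finger genes, the signalling genes Fgf4, Nodal and Dusp6 and the microRNA host Mir17hg were among the fastest to lose it, and of 30 gene lists those of glycolysis and respiration had the lowest median decay rates.

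The cells were female 129S X Cast mouse cells in ES medium. On the 129S allele a doxycycline-dependent TetOn promoter stood in place of Xist's own, and the 3′ end of Xist carried an inserted Bgl-stem-loop, so Xist was read in an induced, tagged form. All cells, those of every time point included, received doxycycline at 1 µg/ml for 17.5 to 20 h, then 4sU at 500 µM with doxycycline for 4 h, and, apart from the 0 min sample, washout medium with 50 mM uridine and doxycycline. Nuclei were isolated before RNA extraction and iodoacetamide treatment, and each time point, from 0 to 150 min in steps of 30 min, was 1 library; no library without 4sU was analysed here.

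4sU is a uridine analogue that cells build into new RNA. Iodoacetamide alkylates it, reverse transcription then reads the base as C, and the resulting T>C mismatches mark RNA made during the pulse. In a washout, marked molecules disappear as they are degraded while unmarked ones replace them; in isolated nuclei, RNA that is exported to the cytoplasm also leaves the sample, and loss by decay, loss by export and replacement cannot be told apart here. Rapid turnover is a known property of RNAs for transcription factors and signalling feedback genes, whereas RNAs for metabolic enzymes and the ribosome are known for long lives.

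Both deposited measures were followed. The labelled share is the authors' posterior mean of the proportion of a gene's reads that come from labelled RNA, and the T>C rate is the number of converted T divided by the T covered. A decay rate is the fall of the natural log of either measure per hour along a straight line through the 3 libraries, and the half-life is the time in which that line falls by a factor of 2. With 1 library per time, limma's moderated test measures how closely 3 libraries follow a line and not the spread between cultures. An exact permutation of 3 times cannot give a two-sided p below 0.333 for any single gene, and an unmoderated line per gene, a setting added after the data were seen, called 0 genes on either measure after Benjamini-Hochberg adjustment, with 3374 falling shares and 2465 falling T>C rates at an unadjusted p under 0.05. "Fell" and "rose" below therefore mean calls that borrow the spread of other genes.

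The 3 libraries held 18558073 to 26056531 reads, of which 99.2% to 99.3% fell in genes of the window. Which columns belong to which time was inferred from their numerical prefixes. Gm26917, a model linked to ribosomal RNA, took 4.30%, 8.17% and 8.02% of the reads at 90, 120 and 150 min. All 8 embryonic stem cell markers were present, at a summed 2576 to 2876 CPM (read counts scaled by depth and TMM factor). Pre-plating was meant to remove feeder fibroblasts, yet 20 of 20 feeder markers had reads, at a summed 3812, 4876 and 3928 CPM. The sum was uneven: at 90 min Fn1 held 2263 CPM and Vim 585. Col1a2 and Col1a1 had 101 and 75.8 CPM, and Dcn, Postn and Lum 14.3, 1.94 and 0.18 CPM. At 150 min Lum was at 0. Fewer feeder cells and less RNA per feeder cell cannot be told apart in such bulk samples, and the part of feeder RNA in the results was not tested.

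Over all genes of the window, the labelled share and the T>C rate stepped down together. At 90, 120 and 150 min the median share stood at 39.3%, 27.7% and 21.1%. The median T>C rate was 2.77%, 1.51% and 1.08%. At 0, 30 and 60 min the median share had moved less, at 46.9%, 45.9% and 44.7%, and the median T>C rate was out of order, at 4.71%, 3.03% and 5.06%. That median hides shares that were out of order too. Of 5 equal groups of genes ordered by share at 0 min, the highest had median shares of 83.4%, 61.0% and 75.55%. The lowest had 17.4%, 20.4% and 15%. At 90, 120 and 150 min the highest group had 41.9%, 23.25% and 14.1%. The lowest group had 21.7%, 20.5% and 18.7% there, each above its 17.4% at 0 min. Why its late shares lay above that starting level was not tested. Within the window, 82.3% of genes (9285) kept the order 90 above 120 above 150 min in share and 92.5% (10438) in T>C rate. For 78.1% of genes (8814) the 5% to 95% posterior range at 150 min lay wholly below that at 90 min, and for 0.753% (85) it lay wholly above.

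**Figure D1:**
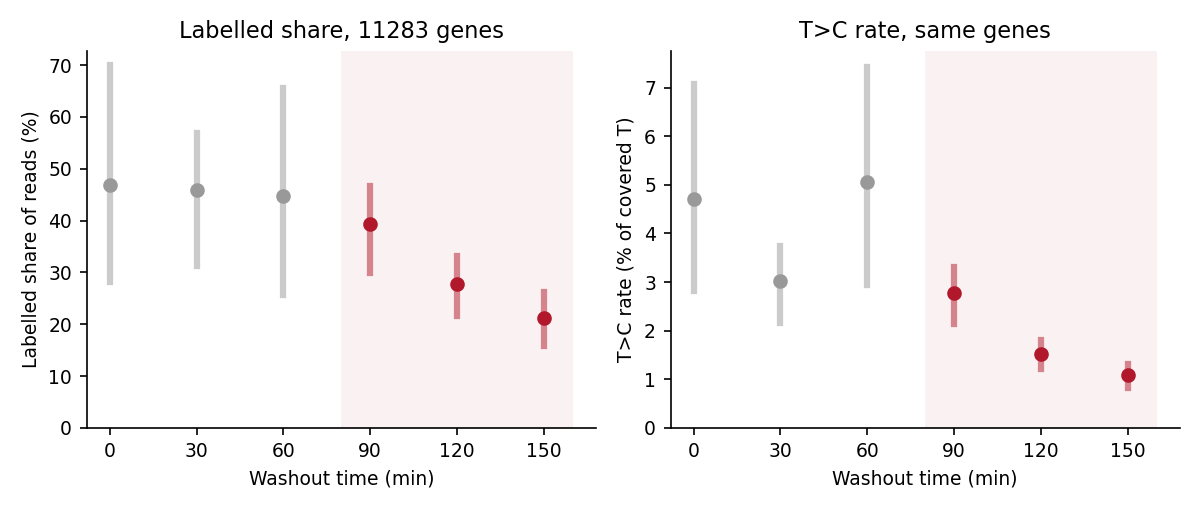
Median (points) and quartile range (bars) over the 11283 genes of the labelled share in percent (left) and the T>C rate in percent of covered T (right), by washout time in min; red marks the 90, 120 and 150 min libraries and grey the earlier ones. The red medians fall from 39.3% to 21.1% in share and from 2.77% to 1.08% in T>C rate, while the grey ones go only from 46.9% to 44.7% in share and keep no order in T>C rate. The grey upper quartiles of the share, 70.0%, 56.9% and 65.6%, keep no order either.

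limma called 7595 genes as falling in labelled share (67.3% of those tested) and 49 as rising (0.434%), at a Benjamini-Hochberg adjusted p below 0.05; 3639 were not called. With no read minimum, limma called 0 of 17880 genes in either direction, with 7179 falling and 437 rising at an unadjusted p under 0.05. The T>C rate fell in 10126 of 11280 genes (89.8%) and rose in 7. Of the genes that fell, 7569 did so in both measures, 26 in share only and 2557 in T>C rate only. The share dropped at least 2-fold from 90 to 150 min in 4154 genes (36.8%), and the T>C rate in 8009 (71%). On the T>C scale limma gave every gene the same standard error, 0.231 per h, so that a call there amounted to a decay rate of at least 0.464 per h; the standard errors of the share ranged from 0.0859 to 0.204 per h between the 5% and 95% quantiles.

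Half-lives from the share were mostly of the order of an hour. The median decay rate was 0.54 per h with quartiles at 0.28 and 0.85 per h, and the rate at the median corresponds to a half-life of 77.1 min. Among the genes that fell, the median half-life was 57.2 min, with quartiles at 41.9 and 80.2 min. Of these, 463 had a half-life under 30 min and 4088 under 60 min. The T>C rate fell faster, at a median of 0.90 per h or a half-life of 46.1 min, and in 96.2% of genes (10846) its decay rate was above that of the share. The T>C rate divided by the labelled share had a median of 7.20% at 90 min, 5.52% at 120 min and 5.14% at 150 min. Mismatches in unlabelled reads were not subtracted. The ratio was the lower the later the library, so the 2 measures give different half-lives for the same gene. Which lies closer to the lifetime of the RNA was not tested.

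**Figure D2:**
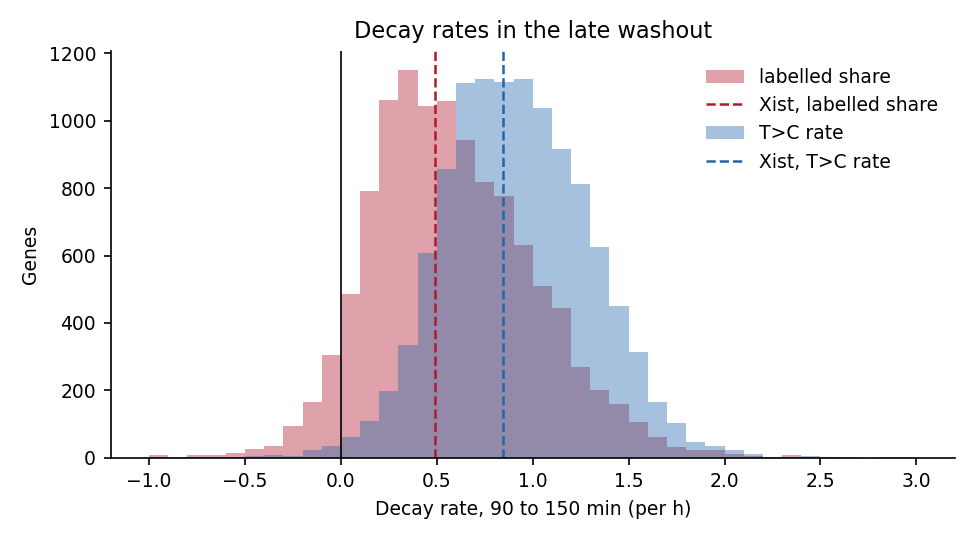
Number of genes by decay rate over 90 to 150 min, in bins of 0.1 per h, from the labelled share (red) and the T>C rate (blue); rates beyond the axis are drawn in the end bins, and dashed lines mark Xist. The T>C distribution lies to the right of that of the share, and Xist sits close to the middle of each.

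The descent was not equally steep before and after 120 min. The median decay rate of the share was 0.60 per h from 90 to 120 min and 0.50 per h from 120 to 150 min, and 56.6% of genes were steeper in the earlier interval. For the T>C rate the medians were 1.15 and 0.67 per h, and 82.2% of genes were steeper in the earlier interval.

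Xist, whose noncoding transcript spreads over an X chromosome and shuts down its genes, was the RNA for which the time course was designed. In share and in T>C rate, but not in labelled amount, Xist fell at about the pace of the median gene. It lies at chrX:103460366-103483254 on the minus strand (mm10, ENSMUSG00000086503) and was covered by 24753, 32597 and 25670 reads at 90, 120 and 150 min. In the same order its labelled share was 43.9%, 31.9% and 26.9%, with a posterior range at 150 min of 26.3% to 27.4%. Its T>C rate was 3.08%, 1.76% and 1.33%, with 95% Wilson intervals, which cover counting error only, of 3.04% to 3.12%, 1.73% to 1.79% and 1.30% to 1.35%. The 3 libraries thus did not overlap in either measure. The decay rate of the share was 0.49 ± 0.10 per h (SE; limma adjusted p = 0.0185), which corresponds to 84.5 min (70.6 to 105 min at 1 SE either side), and that of the T>C rate gave 49.3 min (limma adjusted p = 4.67e-04). Of all genes, 54.6% had a faster fall in share and 56% in T>C rate. Total Xist meanwhile went from 1116 to 1279 and 1387 CPM under continued doxycycline. Multiplied by these levels, the labelled amount of Xist had a half-life of 151 min. Over all genes the median decay rate of the labelled amount was 0.52 per h. That is close to the 0.54 per h of the share, which corresponds to 77.1 min. In labelled amount Xist was thus slower than the median gene.

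The other X-inactivation-centre and nuclear noncoding RNAs spanned a wide range. Ftx (chrX:103560907-103623790, minus strand), a noncoding neighbour and activator of Xist, had only 225, 199 and 148 reads and shares of 28.4%, 19% and 8.55%, with posterior ranges of 23.4% to 33.6%, 13.99% to 24.4% and 4.10% to 14.3%, of which neighbouring ones overlap and the first and last do not. Its half-life was 34.7 min from the share (limma adjusted p = 0.00777) and 44.0 min from the T>C rate. Jpx, another activator of Xist, lay below the read minimum. Neat1 (chr19:5824708-5845478, minus strand), the scaffold of paraspeckles, had shares of 23.1%, 14.8% and 9% and T>C rates of 1.56%, 0.923% and 0.509%. Its half-life was 44.1 min (limma adjusted p = 0.00654) by the share and 37.2 min by the T>C rate. Malat1 (chr19:5795690-5802672, minus strand), an abundant speckle RNA and neighbour of Neat1, had shares of 24.4%, 20.6% and 18.5%, a decline that did not pass the test (limma adjusted p = 0.059), while its T>C rate of 1.80%, 1.17% and 0.961% fell (limma adjusted p = 0.00843) with a half-life of 66.1 min.

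Among the 20 tested entries of a list of nuclear and regulatory noncoding RNAs, in which Dancr appears under a pair of gene identifiers, 14 fell in share (70%, close to the 67.3% of all genes), 10 dropped at least 2-fold (50%, against 36.8%) and the median decay rate was 0.66 per h. Mir17hg, the host of the miR-17 to miR-92 cluster (chr14:115042879-115046727, plus strand), fell fastest, with shares of 15.6%, 5.20% and 1.86% and a half-life of 19.6 min. Mir124a-1hg followed with shares of 15.3%, 6.98% and 3.24% and 26.8 min. It had only 72 reads at 90 min, where its posterior range was 8.45% to 23.4%. Pvt1, a neighbour of Myc, had 37.9%, 27.1% and 20.6% and 68.1 min. Meg3, the imprinted RNA of the Dlk1 region, was among those not called in share, with 43.7%, 37.7% and 35.2% (limma adjusted p = 0.103). Of 9 snoRNA host genes, whose spliced transcripts carry snoRNAs in their introns, 8 fell; Taf1d had shares of 23.3%, 13.0% and 9.77% and Rabggtb 32.0%, 20.3% and 13.9%, while Snhg6 stayed uncalled at 36.1%, 38.9% and 38.8%.

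**Figure D3:**
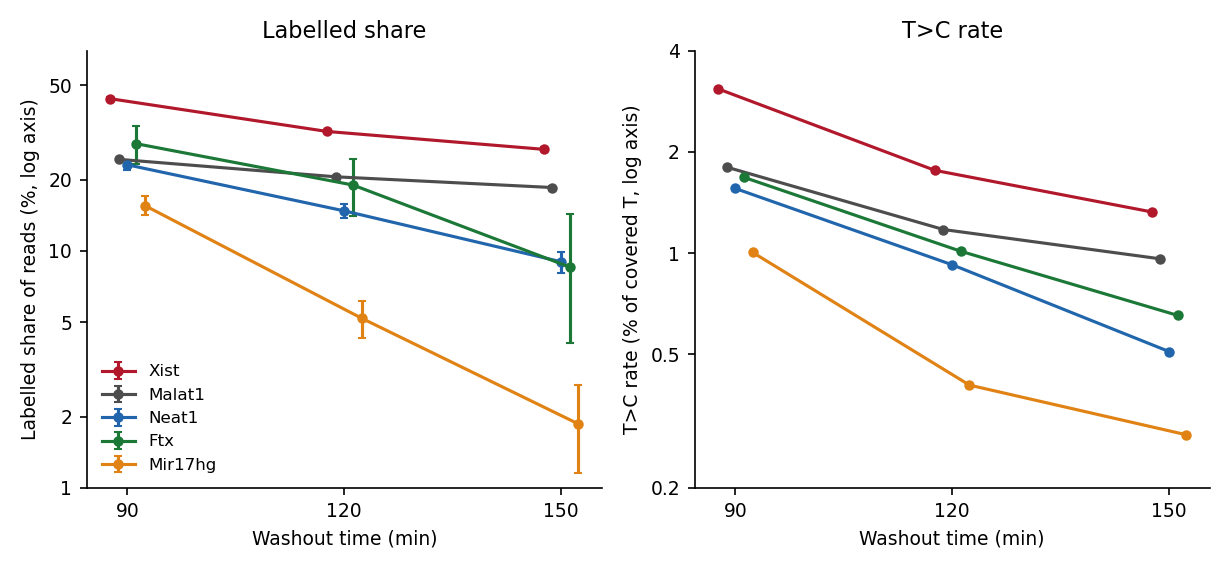
Labelled share in percent with its 5% to 95% posterior range (left) and T>C rate in percent of covered T (right) for 5 noncoding RNAs at 90, 120 and 150 min, both on log axes; points are shifted sideways to keep the bars apart. Xist is highest in both panels, Mir17hg is lowest and steepest, and Malat1 is the flattest of the 5 in share.

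The 8 fastest genes with at least 500 reads had half-lives of 17.5 to 20.1 min. They were Cep152, Zic5, Zfp105, 6720427I07Rik, Zfp574, Mir17hg, Med26 and Fzd10. Cep152, a centrosomal scaffold of centriole duplication, had shares of 37.2%, 17.6% and 3.46% and a decay rate of 2.37 ± 0.28 per h (SE). Zic5, a zinc finger transcription factor, had shares of 26.9%, 10.4% and 2.65% and T>C rates of 2.02%, 0.576% and 0.245%. Fzd10, a Wnt receptor, had shares of 33.7%, 11.4% and 4.26% while its total level went from 87.2 to 54.5 and 45.3 CPM. In all 3 genes each library lay below the one before it in both measures, and every one of the 8 had held a share of 86.1% or more at 0 min. In all 8 the T>C rate gave a longer half-life than the share, the reverse of the order in most genes; the gap was widest for Mir17hg, with 33.3 and 19.6 min, and the uncharacterised lincRNA 6720427I07Rik, with 28.2 and 18.1 min, and narrowest for Zic5, with 19.7 and 17.9 min. The genes were picked by the share, so this order is a description. No background was subtracted from the T>C rate. At 150 min the T>C rates of the 8 lay between 0.175% and 0.437%, while A2m, with a share of only 1.64% at 90 min, had 0.243% there. How far such a floor sets the T>C half-lives of the 8 was not tested. For 3 of the 8 the rate rests on the 150 min library: without it Cep152 had 1.49 per h, Zfp105 1.46 in place of 2.30 per h, and Zfp574 0.98 in place of 2.23 per h. Without the 90 min library Zfp574 had 3.48 per h.

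At the slow end of the calls stood Stx7, Sept11, Ints10, Ddx27, Fam50a, Prrc2b, Spcs3 and Gpn1, with half-lives of 143.5 to 144.9 min. At 0 min Stx7, Spcs3, Prrc2b, Sept11 and Ddx27 had held shares of 23.6%, 20.7%, 32.2%, 32.7% and 37.3%. At 90 min they stood higher, at 35.8%, 34.2%, 36.2%, 35.6% and 38.5%. Ints10, Fam50a and Gpn1 were lower at 90 than at 0 min. Stx7, an endosomal syntaxin, had shares of 35.8%, 30.9% and 26.9% (limma adjusted p = 0.0499), and Ints10, a subunit of the Integrator complex, had 35.4%, 30.9% and 26.5%. These values mark the slowest decline that the test could call over an hour, not the slowest RNAs measured, since slower ones are among the 3639 uncalled.

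Zinc finger transcription factors formed the fastest families. Of 37 Zbtb genes, which pair a BTB domain with zinc fingers, 33 fell and 33 dropped at least 2-fold, against 67.3% and 36.8% of all genes; their median decay rate was 1.26 per h (half-life 33.0 min), against 0.54 per h for all genes. Zbtb8a had shares of 54.8%, 21.2% and 10.4%, and Zbtb10 45.9%, 19.5% and 9.30%. Zbtb4 declined least among those called, from 42.5% to 35.6% and 24.9%. The 4 members not called, Zbtb32, Zbtb46, Zbtb48 and Zbtb8b, had shares of 34.5% to 38.1% at 90 min and 16.4% to 18.8% at 150 min, with adjusted p between 0.053 and 0.276. Of 304 numbered Zfp genes, 276 fell and 243 dropped at least 2-fold, with a median of 1.05 per h. Zfp786 had shares of 35.5%, 9.59% and 3.14% and Zfp39 21.3%, 6.43% and 2.12%, each with a half-life under 20 min, at 17.2 and 18 min, while Zfp989 (36.9%, 30.4%, 26.3%) and Zfp697 (35.8%, 30.2%, 25.5%) had over 120 min.

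Immediate early and growth factor response genes, switched on by signalling and known for unstable RNAs, came next, with a median of 0.97 per h. Of 43 genes 39 fell (90.7%, against 67.3% of all genes) and 30 dropped at least 2-fold (69.8%, against 36.8%). Dusp6, a phosphatase that dampens ERK signalling, had shares of 22.6%, 10.3% and 3.42% (limma adjusted p = 0.0065) and a half-life of 22.0 min. Ier2 had 18.9%, 7.85% and 2.94% and 22.4 min. Not all members were fast. Phlda1 had 32.2%, 28.3% and 23.3% with 129 min, and Maff 47.5%, 41.0% and 33.7% with 121 min.

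Genes for mRNA decay and deadenylation themselves fell in 40 of 45 cases (88.9%, against 67.3% of all genes). At least 2-fold drops numbered 28 (62.2%, against 36.8%), and the median was 0.78 per h. Tob1, which recruits the CCR4-NOT deadenylase, had shares of 28.2%, 14.1% and 5.84%, and Pnrc2, a decapping coactivator, 36.1%, 13.9% and 7.73%. Skiv2l2, the exosome helicase, had 33.2%, 27.9% and 24.2%. The list thus ran from half-lives of 26.4 min for Tob1 to 132 min for Skiv2l2 among its called members.

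The pluripotency regulators split widely. Of 33 genes 26 fell (78.8%, against 67.3% of all genes) and 17 dropped at least 2-fold (51.5%, against 36.8%), with a median of 0.72 per h. Fgf4, the growth factor that drives ES cells towards differentiation, had shares of 23.4%, 6.22% and 3.20% and a half-life of 20.9 min. Nodal, a TGF-beta family ligand, had 26.8%, 8.98% and 3.87% and 21.5 min, and Sox2, a core pluripotency factor, 24.6%, 10.3% and 5.65% and 28.2 min. Nuclear receptor Esrrb had 50.2%, 25.2% and 14.8% and 34.1 min, with T>C rates of 3.65%, 1.37% and 0.741%. Pou5f1, the partner of Sox2, was not called, with 18.55%, 15.8% and 15.55% (limma adjusted p = 0.178), nor was the small RNA-binding protein gene Dppa5a, with 11.1%, 11.4% and 10.4%. Among the called members the cofactor Trim28 was slowest, with 38.5%, 32.0% and 26.7% and 113 min, next to Prdm14 with 47.8%, 34.8% and 32.0% and 104 min, a rate of 0.40 per h that became 0.17 per h when the 90 min library was left out and 0.63 per h when that of 150 min was. Of 7 early differentiation markers with enough reads 5 fell (71.4%), led by Eomes (44.8%, 29.9% and 11.2%) on 117 reads and Wnt3 (45%, 24.3% and 12.8%) on 109. Of 11 genes of the two-cell-like state 6 fell (54.5%), among them Zfp352 (43.9%, 27.4% and 13.4%); its Usp17l members are near-identical copies between which reads could be split.

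p53 targets fell in 28 of 31 cases (90.3%, against 67.3% of all genes) and 17 dropped at least 2-fold (54.8%, against 36.8%), with a median of 0.77 per h. Mdm2, the ubiquitin ligase that p53 induces to limit itself, had shares of 41.7%, 25.1% and 13.3% (limma adjusted p = 0.0065) and a half-life of 36.3 min. Its total level was also lower at each time, at 484, 188 and 125 CPM, so its labelled amount declined faster than its share. Ccng1 had shares of 57.4%, 46.5% and 39.8% with 113 min and levels of 1444, 884 and 733 CPM. Ccnb1ip1 fell fastest in the list, from 57.4% to 30.1% and 15.4%, and the 3 members not called were Perp (65.9% at 90 min, 60.3% at 150 min), Epha2 (53.1%, 38.4%) and Fas (56.2%, 34.5%). Where the total level moves, as that of Mdm2 and Ccng1 did here, the share depends on the unlabelled RNA as well as on the labelled.

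Replication-dependent histone genes, whose RNAs end in a stem-loop in place of a poly(A) tail, fell in 48 of 55 cases (87.3%, against 67.3% of all genes). At least 2-fold drops numbered 41 (74.5%, against 36.8%), and the median was 0.87 per h. Hist1h3h had shares of 29.7%, 19.8% and 8.84%, and Hist1h4n 38.9%, 21.2% and 11.8%. Hist2h2bb had 62.5%, 49.2% and 44.2%. Of the 7 members not called, Hist1h2ai (84.0% at 90 min, 87.5% at 150 min) and Hist1h4c (73.9%, 76.4%) kept shares far above the 21.1% median of all genes. Near-identical coding sequences make the split of reads between histone genes uncertain.

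RNA-processing and chromatin lists had medians from 0.45 to 0.69 per h, on either side of the 0.54 per h of all genes. Of 33 SR splicing factors and CLK kinases 28 fell (84.8%, against 67.3% of all genes), with a median of 0.69 per h; the kinase Clk1, which phosphorylates SR proteins, had shares of 32.5%, 13.4% and 7.64%, and the large SR-related protein gene Srrm2 had 52.7%, 43.1% and 35.4%. Of 25 hnRNP genes 19 fell (76%) and 5 dropped at least 2-fold, with a median of 0.45 per h; Hnrnpdl had 42.0%, 25% and 16.7% and Hnrnpa1 20.4%, 17.7% and 14.7%. Of 39 factors for Xist silencing and localisation 33 fell (84.6%) and 16 dropped at least 2-fold, with a median of 0.61 per h. Among them the Polycomb component Rybp had 51.2%, 25.9% and 12% with a half-life of 28.7 min, Wtap, of the m6A writer complex, 46.5%, 22.9% and 12% with 30.7 min, and Hnrnpk, which links Xist to Polycomb, 28.1%, 23.4% and 20.0% with 122 min. Their half-lives thus lay on either side of the 84.5 min of Xist. Of 33 Mediator genes 29 fell (87.9%), with Med26 (25.3%, 11.2% and 3.12%) and Med18 (34.2%, 11.2% and 4.82%) well ahead of Med30 (38.4%, 31.6% and 27.5%).

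Stress, lipid and growth lists lay close to the background in the proportion called: between 63.2% and 75.8% of their members fell, against 67.3% of all genes. They differed more in size. From heat shock to Slc25 genes, 15.8% to 45.5% dropped at least 2-fold, against 36.8% of all genes. Their median decay rates were 0.40 and 0.67 per h, against 0.54 per h. Of 33 genes of the unfolded protein response and the integrated stress response, 21 fell, with a median of 0.51 per h; Atf4, the transcription factor of that response, had shares of 29.9%, 14.4% and 6.81% and Creld2 39.6%, 30.6% and 25.7%. Of 24 sterol genes 16 fell; the synthesis enzyme gene Hmgcs1 had 56.2%, 46.0% and 39.7% with a half-life of 119 min. Of 19 heat shock genes 12 fell, led by Dnajb1 (39.1%, 21.4% and 13.7%). Of 47 cell cycle genes 35 fell, from E2f2 (40.8%, 13.8% and 7.13%) and E2f3 (34.8%, 13.5% and 7.58%), transcription factors of S phase, to the replication helicase gene Mcm3 (64.2%, 54.5% and 46.0%). E2f2 had a mean of only 141 reads. Of 46 nucleolar and ribosome biogenesis genes 34 fell, from Ppan (37.0%, 16.4% and 8.73%) to Gnl2 (34.2%, 27.7% and 24.3%). Of 33 mitochondrial carriers of the Slc25 family 25 fell, led by Slc25a25 (39.2%, 21.6% and 10.4%).

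Several lists of large housekeeping complexes fell less often than the 67.3% of all genes. Of 85 cytosolic ribosomal protein genes 29 fell (34.1%) and 1 dropped at least 2-fold, with a median of 0.27 per h. That member was Rpl7l1, a paralogue of Rpl7 that works in ribosome assembly, with 51.7%, 36.0% and 23.9%. Rps19 had 19.7%, 14.9% and 11.4% and Rps14 19.4%, 17.0% and 14.5%. Mitochondrial ribosomal protein genes did not share this low count: 56 of 78 fell (71.8%), although 11 (14.1%, against 36.8% of all genes) dropped at least 2-fold and the median was 0.42 per h. Of 42 translation factors 19 fell (45.2%), with Eif1a (49.4%, 23.4% and 13.2%) far ahead of Eif2s1 (35.2%, 29.4% and 26.2%), and of 36 proteasome genes 11 fell (30.6%), led by Psmd7 (47.9%, 33.2% and 21.9%).

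Of 78 OXPHOS genes only 5 fell in share, against 67.3% of all genes, and the median decay rate was 0.14 per h; Ndufv3, of complex I, was fastest with 14.8%, 11.7% and 8.37%, next to Atp5s, which the list's name pattern caught although it is not a structural subunit. In T>C rate 50 of the 78 fell, also a lower proportion than the 89.8% of all genes. Of 7 TCP1 chaperonin subunits 0 fell in share by limma, all with adjusted p of 0.078 or more and 0 at an unadjusted p under 0.05, while 7 of 7 fell in T>C rate; Cct3 had shares of 27.9%, 24.7% and 22.1%. Of 21 glycolysis genes 4 fell in share, and the median was 0.06 per h. Those 4 were Pfkfb3 (35.8%, 17.0% and 12.3%), Hk2 (49.8%, 28.8% and 22.4%), Eno2 (38.9%, 25.9% and 18.3%) and the glucose transporter gene Slc2a1 (34.8%, 27.4% and 22.9%); Pfkfb3 makes an activator of glycolysis and Hk2 is a hexokinase. The pyruvate kinase gene Pkm, not called, stood at 7.71%, 8.64% and 7.98%. Of 17 feeder markers 4 fell (Pdgfra, Twist1, Fbn1 and Pdgfrb) and Col5a2 rose, from 6.65% to 9.28% and 10.2%.

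**Figure D4:**
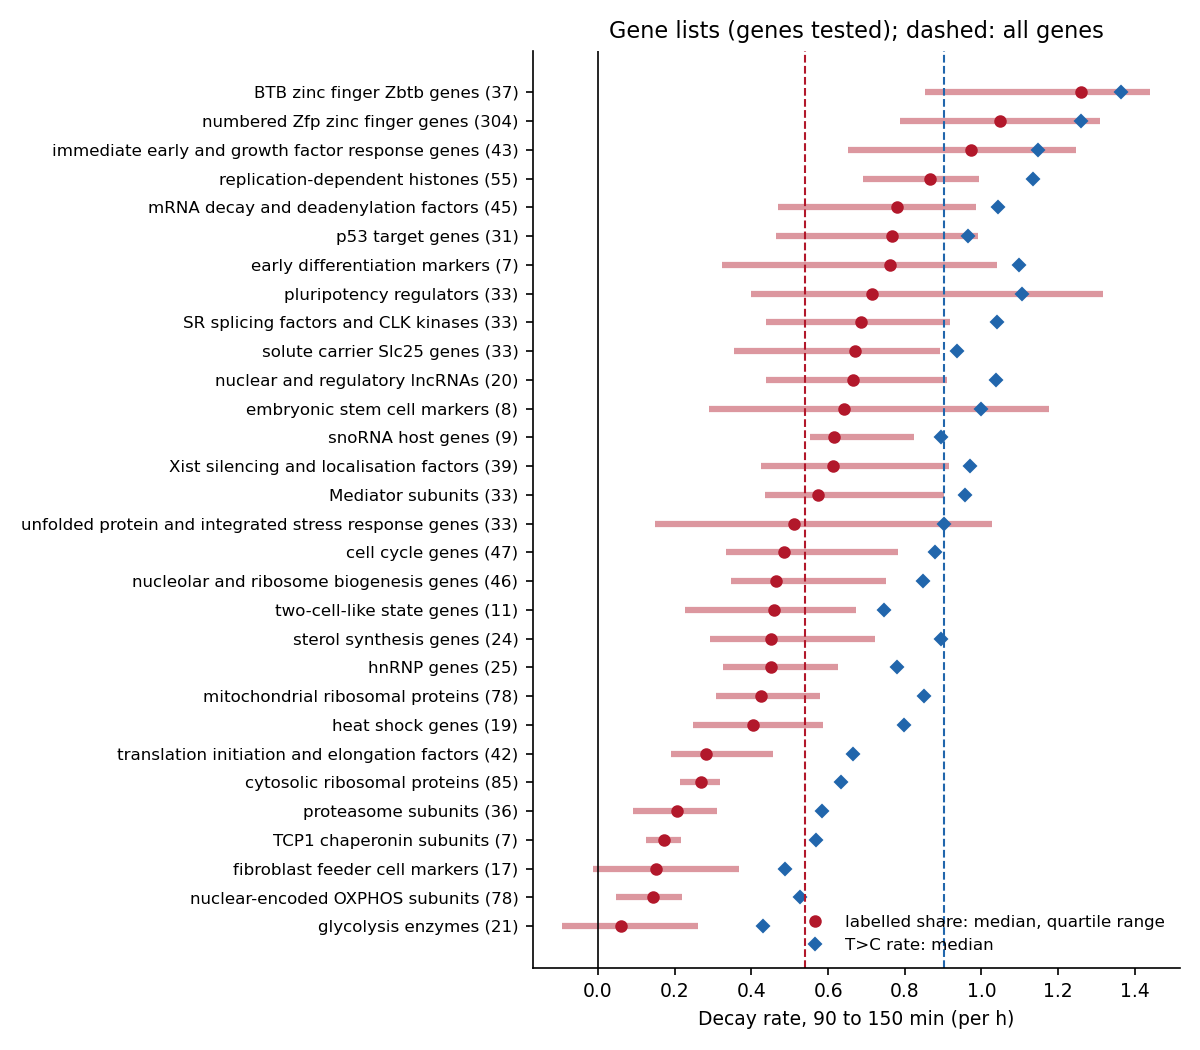
Decay rate per h over 90 to 150 min for 30 gene lists (number of genes tested in brackets): red points and bars are the median and quartile range from the labelled share, blue diamonds the median from the T>C rate, and dashed lines the medians over all genes, 0.54 and 0.90 per h. Zbtb genes lie at the top with 1.26 per h and glycolysis genes at the bottom with 0.06 per h, and in every list the blue median lies to the right of the red one.

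Few genes had a rising share. The 49 that rose (0.434% of genes) had a median of 207 reads and median shares of 13.4% at 90 min and 24.0% at 150 min; none of them fell in T>C rate, whose medians were 1.04% and 1.17%. A2m, a secreted protease inhibitor, had shares of 1.64%, 2.52% and 3.95% (limma adjusted p = 0.00655) but T>C rates of 0.243%, 0.275% and 0.257%. Col16a1, a fibril-associated collagen, had 13.7%, 23.3% and 28.8% and Aldoc, a glycolytic aldolase, 1.08%, 1.87% and 2.20%. The gene model Gm21738 had 12%, 21.4% and 23.2% while its total level went from 243 to 56.6 and 40.1 CPM, and its labelled amount therefore declined. The decay rate of Aldoc on the labelled amount (share times CPM) was -0.13 per h, against -0.71 per h in share, and not called (limma adjusted p = 0.482); the decay rate of Col16a1 was -1.20 per h there (limma adjusted p = 0.0589), and A2m was called on both. Without the 90 min library the rates in share were -0.33 per h for Aldoc, -0.42 per h for Col16a1 and -0.17 per h for Gm21738. For none of these 4 did the T>C rate pass the test in either direction.

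The late decay rate went with the label a gene held when the washout began. When the genes were ordered by labelled share at 0 min, a library outside the window, and cut into 5 equal groups, the median late decay rate of the share was 0.16, 0.36, 0.56, 0.79 and 1.08 per h from the lowest to the highest group. The share of genes that fell was 14.6% in the lowest group and 93% in the highest. Spearman's rho between the share at 0 min and the late decay rate was 0.802 across 11283 genes for the share and 0.76 for the T>C rate. Genes are not independent replicates, the libraries were made in the same experiment and analysed by the same program, and the value is a description.

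**Figure D5:**
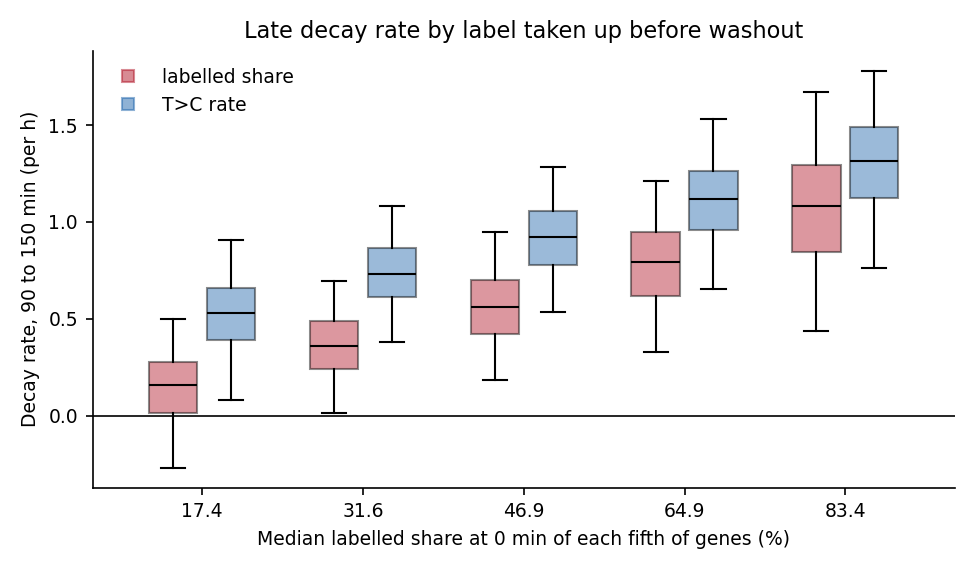
Decay rate per h over 90 to 150 min for 5 equal groups of genes ordered by labelled share at 0 min (median of each group on the axis, in percent), from the labelled share (red) and the T>C rate (blue); boxes show quartiles with the median line and whiskers the 5% to 95% range. The median from the share rises from 0.16 per h in the lowest group to 1.08 per h in the highest.

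Annotation groups differed in the same measure. The 230 protein-coding genes with 1 exon, whose RNAs need no splicing, had a median decay rate of 0.89 per h and those with 2 to 3 exons (854) 0.81 per h, against 0.52 per h for the 10090 with 4 or more. Their shares at 0 min were also higher, with medians of 76.9% and 71.9% against 44.7%. The 85 lincRNAs had a median of 0.66 per h, above the 0.54 per h of all genes, while 50 fell (58.8%), a lower proportion than the 67.3% of all genes. The 390 protein-coding genes on the X chromosome had a median of 0.40 per h and 217 fell, against 0.54 per h and 7317 of 10783 on the autosomes; their median share at 0 min was 32.8%, against 47.2%. By read depth, the proportion that fell was 58.6%, 67.9%, 74.3%, 73.1% and 62.8% from the lowest to the highest of 5 equal groups, and the median width of the posterior range at 150 min was 12.9 percentage points for genes with 100 to 300 reads and 1.96 for those above 5000.

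Known instability elements in the 3′ untranslated region were counted as a description. Whether they bear on the loss of label from these nuclear RNAs was not tested. The nonamer TTATTTATT, the core of AU-rich elements that ZFP36 proteins bind, and TGTANATA, the element of Pumilio proteins, were searched in the transcribed strand's sense only, in mm10 with GENCODE M21 models (1 transcript for each of 11049 genes, of which 8449 had the 500 bases needed for the window). No match to the former can also be a match to the latter. Among the last 500 bases, TTATTTATT occurred in 2.29% of the slowest of 5 equal groups of genes and 4.77% of the fastest, with 3.39% over all windows of that length. TGTANATA occurred in 9.74% and 17.8%, with 14.4% over all. The 3′ regions themselves had a median length of 746 bases in the slowest group and 1582 in the fastest, so whole regions, which held TTATTTATT in 4.62% and 12.1%, differ in length as well.

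Sites of 30 bases from fast genes described above and from slow ones are shown side by side, to let the element be seen at both ends of the scale; capitals mark the nonamer, and all sequences run 5′ to 3′ in the sense of the RNA, written with T.
Zic5 (chr14:122456949-122456978, minus strand; half-life 17.9 min): tgctacaggtTTATTTATTatgaaacaaag
Med18 (chr4:132458826-132458855, minus strand; 21.2 min): ttttattcctTTATTTATTtgttgttttct
Zbtb10 (chr3:9284882-9284911, plus strand; 26.0 min): taaagtaggaTTATTTATTttgtttcttcc
Mdm2 (chr10:117688914-117688943, minus strand; 36.3 min): ggcattgatgTTATTTATTtgcaaataaat
Maff (chr15:79358778-79358807, plus strand; 121 min): ttccacactcTTATTTATTgcacgaatcta
Stx7 (chr10:24187986-24188015, plus strand; 145 min): catttgtaatTTATTTATTgtaactttttg
The nonamer was thus present in Zic5 and Zbtb10, with half-lives under 30 min, and also in Maff and Stx7, with half-lives over 120 min. A match is a string of letters in an annotated region, and whether a protein binds it in these cells was not measured.

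Whether the late fall was steeper than the earlier one was tested in a line through all 6 libraries with a change of slope at 90 min. The median decay rate of the share was 0.08 per h before 90 min and 0.54 per h after, and 91.7% of genes (10341) had a steeper point estimate after 90 min. limma called 0 genes in either direction after Benjamini-Hochberg adjustment, with a smallest adjusted p of 0.0943 and with 4048 steeper and 14 flatter genes at an unadjusted p under 0.05. Cep152, Zic5 and Fzd10, among the genes at that smallest adjusted p, had rates of 0.38, 0.65 and 0.59 per h before and 2.52, 2.57 and 2.31 per h after. The earlier rate of Cep152 rests in part on shares of 89%, 58.3% and 80.8% at 0, 30 and 60 min, which keep no order. Xist had 0.19 per h before and 0.58 per h after (limma adjusted p = 0.281). The count rests on the 60 min library: without it 4512 genes were called steeper and 23 flatter. The order of the 30 and 60 min libraries is in doubt, and the fit uses both. On the T>C rate the same limma fit called 0 of 11280 genes in either direction. There 628 genes were steeper and 2 flatter at an unadjusted p under 0.05. From 0 to 90 min the median T>C rate went from 4.71% to 2.77%, and the median share from 46.9% to 39.3%.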

How the data were processed

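SLAM-seq libraries of nuclear RNA from 6 washout times, 1 per time, were used. The authors deposited 1 table with, per gene and time, read counts, counts of covered T and of T>C conversions, and the posterior mean, mode and quantiles of the labelled fraction. Per the file headers these are fractions from 0 to 1, shown here as percent; conversion counts carry 4 significant digits. The program behind it remains not given in the sources used here; STAR 2.5.2b and mm10 are named per the submitters' processing notes. Columns carry numerical prefixes, read as times. Stranded total RNA libraries were sequenced as 81-base pairs, per the labels' protocols.

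Genes needed a mean of 100 reads over the 3 late libraries. Lines through the natural log of share or T>C rate were fitted with limma 3.58.1 (R 4.3.3), 1 residual degree of freedom, Benjamini-Hochberg threshold 0.05, and tested on simulated data; the 6-library fit left 3. CPM used TMM from edgeR 4.0.16. Posterior ranges carry the precision of each share. Gene symbols and identifiers come from the table, and 23223 (99.8%) matched GENCODE M21.

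The rule for named genes took Xist, Ftx, Jpx, Neat1 and Malat1, the 8 fastest and 8 slowest called genes with at least 500 reads, the 4 steepest rising, and the 2 fastest and 2 slowest called members of each of 30 lists; a few uncalled members were chosen after their values were seen. A single gene that the rule takes is not reported here. The window, the lists and the tests were chosen with earlier results of these data known. Alternatives covered the posterior mode, logit, read minimum, weights, variance prior, labelled amount, both-mate conversions, and libraries added or left out. Mitochondrial genes were not analysed here.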

Additional observations from a re-analysis of the deposited data

How the results depend on the processing

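No paired analysis was possible because 1 library stood for each time. With no read minimum limma called 0 falling and 0 rising shares, with 7179 and 437 at an unadjusted p under 0.05; that fit includes genes with few reads. Unmoderated lines, added after the data were seen, called 0 falling and 0 rising genes in share and 0 and 0 in T>C rate. Rising shares numbered 79 with a trended robust prior, 15 and 19 on the labelled amount with and without TMM, 162 with the 0 min library added and 127 with all 6 libraries. Rising T>C rates numbered 0 with 300 reads, 0 with 4 and 0 with 6 libraries (also 0 unadjusted in each), 118 with no read minimum, 1 with the trended prior and 13 from both-mate T. The median share decay was 0.24 per h with 4 libraries and 0.25 with 6, and that of the T>C rate 0.53 and 0.51; leaving out 1 library gave 0.67 (without 90 min) to 1.15 per h (without 150 min) for the T>C rate. The Xist half-life by share was 151 and 138 min on the labelled amount with and without TMM, 127 min with 4 and 124 min with 6 libraries, and 65.3 (without 150 min) to 120 min (119.57, without 90 min) when 1 library was left out; by T>C rate it was 70.1 min with 6 libraries and 37.2 to 73.0 min. Steeper and flatter genes after 90 min numbered 2896 and 15 without the 30 and 60 min libraries, 4974 and 14 with those times exchanged, and 0 to 4512 and 0 to 23 with 1 library left out. Gm21738 reversed to 1.14 and 1.17 per h on the labelled amount with and without TMM. The causes were not tested. Of 141 named genes, 12 lost the call with the posterior mode, and 62 and 56 on the labelled amount. Falling counts in share and T>C rate otherwise stayed within 1.5 times. The posterior range at 150 min was widest at 100 to 300 reads, where 59.1% of genes fell, at a median of 0.56 per h. From 300 to 1000 reads 71.0% fell (0.60 per h), and from 1000 to 5000 reads 71.3% (0.51 per h). Above 5000 reads 52.0% fell, at a lower median of 0.30 per h.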
